A study of Homo sapiens with 7 samples.

Results

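The genes described are 10 imprinted genes that lie outside the Prader-Willi region of chromosome 15: MEG3, MEG8, DLK1, H19, IGF2, PEG3, PEG10, MEST, KCNQ1OT1 and CDKN1C. They were chosen by symbol from the 59251 gene rows of the count table, and all 10 had a row and passed the filter on low counts that 26062 rows passed. RNA-seq of poly(A) RNA was measured in DJL1 cells (3 libraries) and CTRL cells (4 libraries), both H9 human embryonic stem cells, an established line, kept in the naive-state medium RSeT. The cells were transfected with guide RNA plasmids, and the sources used here do not say what the DJL1 and CTRL plasmids target or which protein they guide. The study's title concerns LINE1 elements near ribosomal DNA, and the comparison asks which RNAs differ between the groups at 48 h. In both groups the medium held 10 nM DZNep, which lowers histone methylation, and 5 nM of the histone deacetylase inhibitor TSA, with the CEPT cocktail, which helps cells survive, present up to 16 h. Every value therefore comes from cells under these chromatin inhibitors. Cell sorting is named in the treatment label but not in the design text, so whether the RNA came from sorted cells is unclear. Nothing in the labels says that replicates were separate cultures, and p-values then measure only library-to-library spread, which may be technical.

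Total counts were 34634882 to 37795742 in DJL1 libraries and 62277489 to 76691997 in CTRL libraries, so depth did not overlap between the groups. The biological coefficient of variation that edgeR estimated within a group was 13.8% in DJL1 and 3.46% in CTRL. Depth and spread therefore differ with the group and, with no batch given, cannot be told apart from it. Of 9 markers of pluripotent cells 8 were lower in DJL1 and POU5F1 was not called, with a summed level of 9181 to 10175 CPM in DJL1 and 11492 to 11720 CPM in CTRL. Over all tested genes 27.0% were higher and 25.1% lower. CPM are counts scaled to a common library size of 1000000, with TMM factors that centre the log ratios between libraries. Naive-state markers summed to 2310 to 3150 CPM in DJL1 and 899 to 971 CPM in CTRL, with 7 of 9 higher and 2 lower. Most of that sum was ALPG, a placental-type alkaline phosphatase gene, at 1894 to 2668 CPM in DJL1 and 537 to 608 CPM in CTRL. The labelled cell type was thus present in both groups. In bulk RNA, more cells that express a gene and more RNA per cell cannot be told apart.

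An imprinted gene is transcribed mainly from the copy inherited from a single parent, and the choice is set by DNA methylation that is laid down in the egg or the sperm and kept at control regions after fertilization. Many imprinted genes sit in clusters that hold both protein-coding genes and long noncoding RNAs, often transcribed from opposite parental copies. Many of them are strongly expressed in placenta and fetal mesenchyme, and pluripotent cells kept in naive media are known to lose methylation at imprinted regions. Among the genes described, DLK1, IGF2, PEG3, PEG10, MEST and KCNQ1OT1 are known as paternally expressed and MEG3, MEG8, H19 and CDKN1C as maternally expressed. The counts hold no allele, so which parental copy was transcribed was not measured.

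The windows around the starts of MEG3 and H19 are shown because these maternally expressed noncoding RNAs were both higher in DJL1 cells and differ in CpG content and in a motif of imprint control. Each has 250 bases before the start and 50 after it, in the RefSeq table for GRCh38.p14, where 3 of the 10 genes (MEG3, H19 and MEST) have an entry. Capitals mark the core motif of the imprint-protecting zinc finger protein ZFP57, TGCCGC, searched on both strands (GCGGCA on the other).
MEG3, chr14:100825858-100826157, plus strand: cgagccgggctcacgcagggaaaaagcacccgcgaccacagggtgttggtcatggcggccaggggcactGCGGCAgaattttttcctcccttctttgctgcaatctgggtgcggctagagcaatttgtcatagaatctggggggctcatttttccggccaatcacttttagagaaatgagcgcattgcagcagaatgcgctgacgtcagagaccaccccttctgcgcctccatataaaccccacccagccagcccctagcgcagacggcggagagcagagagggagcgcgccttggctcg
H19, chr11:2001217-2001516, minus strand: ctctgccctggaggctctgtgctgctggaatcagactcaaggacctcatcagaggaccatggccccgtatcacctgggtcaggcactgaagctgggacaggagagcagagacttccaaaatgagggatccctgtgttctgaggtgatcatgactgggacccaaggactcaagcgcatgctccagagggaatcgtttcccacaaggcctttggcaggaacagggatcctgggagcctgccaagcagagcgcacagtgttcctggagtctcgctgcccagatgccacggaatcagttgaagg
The MEG3 window holds the motif once and 19 CpG dinucleotides, the H19 window holds these letters nowhere and 6 CpG. The motif is in 16.7% of the 35116 windows of the same length, and the median window has 14 CpG. All 3 MEG3 entries and 4 of 5 MEST entries hold the motif, but these windows overlap. The 3 MEG3 windows hold the same site, and the MEST windows with the motif form overlapping pairs that share sites. Such counts of entries are therefore not separate sites to set against the share of all windows. A match describes letters and is not evidence of binding. Sequence outside these windows, where imprint control regions may lie, was not searched, so the H19 window says nothing about motifs elsewhere at that locus.

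Of the 10 genes 8 were higher in DJL1 cells, MEST was lower, and KCNQ1OT1 was not called, at an adjusted p of 0.05 (quasi-likelihood test of edgeR, Benjamini-Hochberg over all tested genes). For 8 genes every DJL1 library lay above every CTRL library, for MEST every DJL1 library lay below, and for KCNQ1OT1 the groups overlapped. The background was high: 52.0% of all tested genes were called, 27.0% higher and 25.1% lower, and 53.6% did not overlap between the groups, 27.4% with DJL1 above and 26.2% with DJL1 below. The median log2 fold change was 0.68 over the 10 genes and 0.01 over all tested genes. All 4 maternally expressed genes were higher, with log2 fold changes of 0.68 to 2.03. Among the 6 paternally expressed genes 4 were higher and 1 lower, over a range of -0.40 to 2.94. The summed level of the maternally expressed genes was 274 to 376 CPM in DJL1 and 183 to 193 CPM in CTRL, whereas that of the paternally expressed genes was 372 to 382 CPM in DJL1 and 375 to 380 CPM in CTRL, a sum made up mostly of PEG10 and MEST. Most of the maternal sum was H19, at 194 to 290 CPM in DJL1 and 137 to 145 CPM in CTRL, and its highest value is DJL1 library 2.

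**Figure D1:**
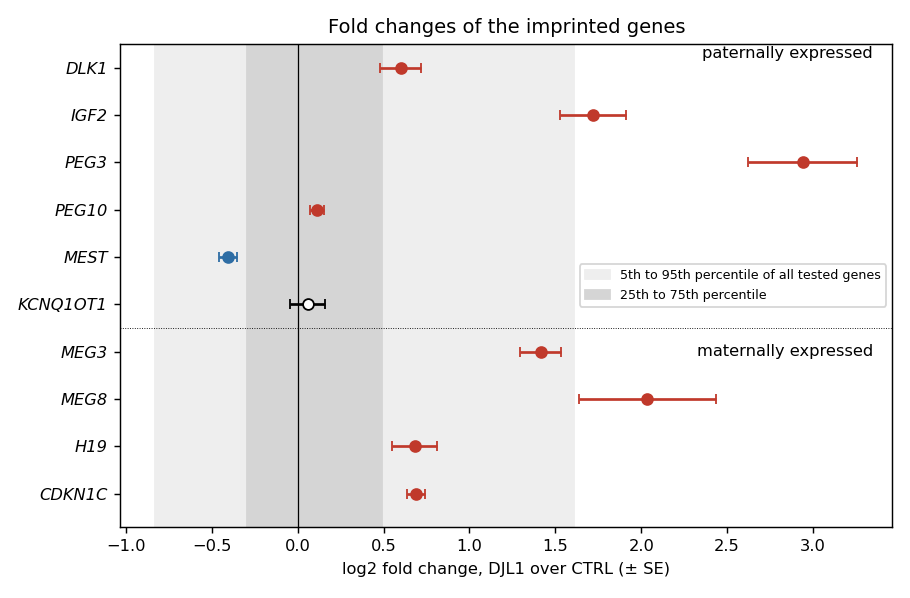
Log2 fold change of DJL1 over CTRL (horizontal axis, with SE as bars) for the 6 paternally and the 4 maternally expressed genes; red is higher, blue lower, white not called. Grey bands give the 5th to 95th and the 25th to 75th percentile of all tested genes (-0.83 to 1.61 and -0.30 to 0.49), and IGF2, PEG3 and MEG8 lie beyond the 95th.

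In the cluster on chromosome 14, DLK1 and the noncoding RNAs MEG3 and MEG8 were all higher. MEG3 (chr14:100826108-100861026, GRCh38.p14), a long noncoding RNA that is used as a marker of imprint status in pluripotent cells, had 13.99, 11.2 and 10.7 CPM in DJL1 libraries 1 to 3, against 3.98, 4.17, 4.78 and 5.04 CPM in CTRL libraries 1 to 4. The lowest DJL1 library was more than 2-fold above the highest CTRL library. This is a log2 fold change of 1.42 ± 0.12 (SE, edgeR adjusted p = 1.04e-07). MEG8 (chr14:100889649-100999113), a noncoding RNA downstream of MEG3 that hosts small nucleolar RNAs, had 1.02, 1.03 and 0.62 CPM in DJL1 and 0.24, 0.30, 0.13 and 0.18 CPM in CTRL. Its raw counts were 39, 36 and 23 in DJL1 and 15, 23, 8 and 12 in CTRL, so although no CPM value overlapped, the depth behind it is low. Its log2 fold change was 2.03 ± 0.40 (edgeR adjusted p = 0.000499).

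DLK1 (chr14:100726892-100738224), a membrane protein related to Notch ligands that restrains adipocyte differentiation, had 10.4, 15.8 and 13.8 CPM in DJL1 and 8.36, 8.76, 9.70 and 8.31 CPM in CTRL. The groups did not overlap, but DJL1 library 1 stood close to the highest CTRL library. DLK1 had a log2 fold change of 0.60 ± 0.12 (edgeR adjusted p = 0.00048). Within a library the log2 ratio of MEG3 to DLK1 was 0.43, -0.49 and -0.36 in DJL1 and -1.06, -1.06, -1.02 and -0.72 in CTRL. The difference of the means was 0.82, with all DJL1 libraries above all CTRL libraries. An exact 2-sided permutation test over the 35 splits gave p = 0.0571, the smallest it can give here (also 0.0571 after adjustment over the 3 ratios computed). Without DJL1 library 1 the difference was 0.54, that is more than 1.5 times smaller.

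Further along the same cluster, RTL1, a retrotransposon-derived gene transcribed opposite to a noncoding RNA of the maternal copy, had 0.88 ± 0.33 CPM in DJL1 and 0.17 ± 0.08 CPM in CTRL (SD, n = 3 and 4; log2 fold change 2.36 ± 0.46, edgeR adjusted p = 0.000454). Its counts were 27, 44 and 25 in DJL1 and 13, 12, 4 and 16 in CTRL. The CTRL libraries alone would not have passed the filter on low counts, so RTL1 was tested only through the group where it was high. MEG9, the noncoding RNA at the far end, was not called, at 0.49 ± 0.15 CPM in DJL1 and 0.34 ± 0.13 CPM in CTRL (edgeR adjusted p = 0.316). DIO3, a thyroid hormone deiodinase gene 735 kb from the MEG3 start, was not called either (log2 fold change 0.11 ± 0.11). Reads from RTL1 and its antisense RNAs cannot be told apart, because the strand setting of the counting is not given in the sources used here. RTL1 (chr14:100879753-100903722) also overlaps MEG8 by position. The calls of RTL1 and MEG8 may therefore not be separate, which was not tested.

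**Figure D2:**
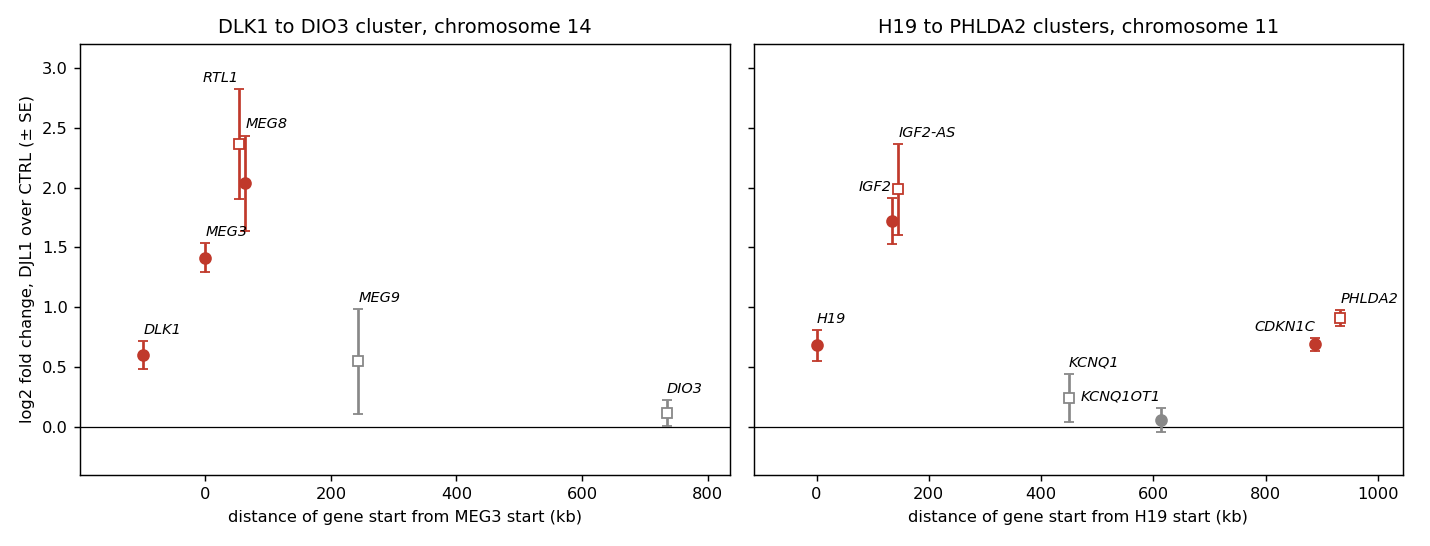
Log2 fold change with SE (vertical axis) against the distance of each gene start from the start of MEG3 (left) or H19 (right) in kb; filled circles are genes described here and open squares other imprinted or overlapping genes, red higher and grey not called. DLK1, MEG3, RTL1 and MEG8 were higher. MEG9 had a log2 fold change close to that of DLK1 but a larger SE and was not called, nor was DIO3. On chromosome 11 KCNQ1 and KCNQ1OT1 were not called between the higher genes shown at both ends. SLC22A18, a gene of the same cluster that was called lower, is not shown because it had no RefSeq position here.

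On chromosome 11, H19 and IGF2 were both higher. These neighbours share an enhancer set and are usually expressed from opposite parental copies, H19 as a noncoding RNA and IGF2 as a fetal growth factor. H19 (chr11:1995176-2001266) had 194, 290 and 201 CPM in DJL1 and 144, 145, 137 and 145 CPM in CTRL. All DJL1 libraries were above CTRL, and DJL1 library 2 stood well above the other two. For H19 the log2 fold change was 0.68 ± 0.13 (edgeR adjusted p = 0.00308) and 0.46 without DJL1 library 2.

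IGF2 (chr11:2129117-2149566) had 3.76, 3.02 and 5.15 CPM in DJL1 and 1.35, 1.08, 1.19 and 1.23 CPM in CTRL. No library overlapped, and the DJL1 libraries spread more than the CTRL libraries. Its log2 fold change was 1.72 ± 0.19 (edgeR adjusted p = 2.31e-06), on raw counts of 74 to 84 in CTRL. IGF2 lies inside the readthrough gene INS-IGF2, whose row held 0 counts in all 7 libraries. How the counting treated reads that fall on both genes is not given, and its effect on the level of IGF2 was not tested. IGF2-AS, an antisense RNA over IGF2, was also higher, at 0.83 ± 0.07 CPM in DJL1 and 0.21 ± 0.05 CPM in CTRL (SD, n = 3 and 4; log2 fold change 1.98 ± 0.38, edgeR adjusted p = 0.000388), and without strand its reads cannot be told apart from those of IGF2.

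Within a library the log2 ratio of H19 to IGF2 was 5.68, 6.57 and 5.28 in DJL1 and 6.70, 7.02, 6.80 and 6.84 in CTRL. Every DJL1 library was below every CTRL library, with a difference of -0.999 (exact 2-sided permutation test, p = 0.0571, the smallest possible). With 3 and 4 libraries none of the 3 ratio tests can pass 0.05. H19 had the higher CPM in every library.

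**Figure D3:**
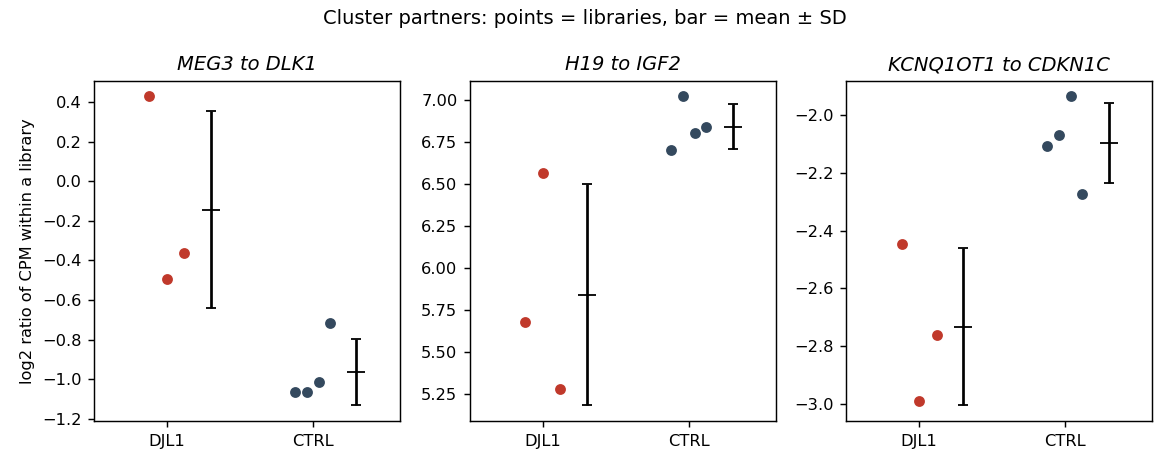
Log2 ratio of CPM within each library (vertical axis) for 3 pairs of cluster partners; points are libraries and bars mean and SD (n = 3 DJL1, 4 CTRL). MEG3 to DLK1 was higher in DJL1, while H19 to IGF2 and KCNQ1OT1 to CDKN1C were lower, with no overlap between the groups in any of the 3.

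Farther along chromosome 11, CDKN1C was higher and KCNQ1OT1 was not called. CDKN1C (chr11:2883218-2885775), the cyclin-dependent kinase inhibitor p57, had 65.1, 73.9 and 66.9 CPM in DJL1 and 43.8, 41.9, 41.0 and 43.4 CPM in CTRL. Libraries within a group lay close together and the groups were well separated. CDKN1C had a log2 fold change of 0.69 ± 0.05, with the smallest adjusted p of the 10 genes (edgeR, 2.92e-08). KCNQ1OT1 (chr11:2608328-2699994), an antisense RNA inside KCNQ1 that in mouse silences neighbouring genes in cis, had 11.9, 9.27 and 9.82 CPM in DJL1 and 10.1, 9.96, 10.7 and 8.95 CPM in CTRL. DJL1 library 1 was above and the others within the CTRL range. The log2 fold change was 0.06 ± 0.10 (edgeR adjusted p = 0.657), and -0.07 without DJL1 library 1. Without the strand setting, its reads cannot be told apart from those of KCNQ1.

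The log2 ratio of KCNQ1OT1 to CDKN1C was -2.45, -2.99 and -2.76 in DJL1 and -2.11, -2.07, -1.94 and -2.27 in CTRL, a difference of -0.64 (exact 2-sided permutation test, p = 0.0571, the smallest possible). KCNQ1, the potassium channel gene around KCNQ1OT1, was not called (log2 fold change 0.24 ± 0.20, edgeR adjusted p = 0.339), except without DJL1 library 2 (0.45, edgeR adjusted p = 0.0412). Its antisense RNA KCNQ1-AS1, with counts of 10, 0 and 0 in DJL1 and 10 to 18 in CTRL, was not called either, except without DJL1 library 1 and with limma-voom, where it was lower. PHLDA2, a growth-limiting placental gene beside CDKN1C, was higher at 80.4 ± 10.0 CPM in DJL1 and 42.8 ± 2.53 CPM in CTRL (SD, n = 3 and 4; log2 fold change 0.91 ± 0.07, edgeR adjusted p = 4.25e-08). SLC22A18, a transporter gene of the same cluster, was lower at 9.83 ± 3.03 CPM in DJL1 and 13.3 ± 0.64 CPM in CTRL, with overlapping libraries (log2 fold change -0.43 ± 0.15, edgeR adjusted p = 0.0254). It was not called without DJL1 library 1 (log2 fold change -0.22, edgeR adjusted p = 0.0673), DJL1 library 2 (-0.47, edgeR adjusted p = 0.0742) or CTRL library 4 (-0.41, edgeR adjusted p = 0.0542), and was -0.67 without DJL1 library 3.

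PEG3 (chr19:56810082-56840726) had the highest log2 fold change of the 10. It encodes a zinc finger protein and had 3.05, 2.40 and 2.64 CPM in DJL1 and 0.26, 0.16, 0.53 and 0.47 CPM in CTRL. Raw counts were 117, 84 and 98 in DJL1 and 16, 12, 33 and 31 in CTRL. The libraries did not overlap in either unit, although CTRL libraries were sequenced more deeply. The log2 fold change was 2.94 ± 0.32 (edgeR adjusted p = 1.55e-06), and 0.388% of all tested genes had a higher one. ZIM2, which shares its start with PEG3, had 1 count in all 7 libraries, and how reads on exons of both genes were counted is not given. ZIM2-AS1 did not pass the filter, with 4 to 13 counts in DJL1 and 0 to 3 in CTRL.

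On chromosome 7 PEG10 was slightly higher and MEST was lower. PEG10 (chr7:94656325-94669695), a gene derived from a retrotransposon that mouse placenta needs, had 242, 267 and 248 CPM in DJL1 and 236, 228, 233 and 236 CPM in CTRL. The lowest DJL1 library lay just above the highest CTRL library. The log2 fold change was 0.12 ± 0.04 (edgeR adjusted p = 0.0265). It was 0.06 with no call without DJL1 library 2 (edgeR adjusted p = 0.102), and the call was also lost without CTRL library 2 (0.10, edgeR adjusted p = 0.0892) or CTRL library 3 (0.11, edgeR adjusted p = 0.061). SGCE, a sarcoglycan gene that starts head to head with PEG10, was higher at 21.5 ± 1.85 CPM in DJL1 and 16.9 ± 0.87 CPM in CTRL (SD, n = 3 and 4; log2 fold change 0.35 ± 0.07, edgeR adjusted p = 0.000785).

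MEST (chr7:130486175-130506465), which encodes a membrane protein with a hydrolase fold, had 100.2, 84.8 and 97.6 CPM in DJL1 and 124, 127, 123 and 125 CPM in CTRL. Every DJL1 library was below CTRL, library 2 most. The log2 fold change was -0.40 ± 0.05 (edgeR adjusted p = 7.77e-06). COPG2, a coat protein gene that overlaps the end of MEST, was lower too (log2 fold change -0.23 ± 0.05, edgeR adjusted p = 0.00167). MESTIT1, an RNA antisense to the start of MEST, was not called (0.17 ± 0.30), nor was COPG2IT1 (-0.01 ± 0.27). Reads of MEST and MESTIT1 where they overlap cannot be told apart without the strand setting.

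**Figure D4:**
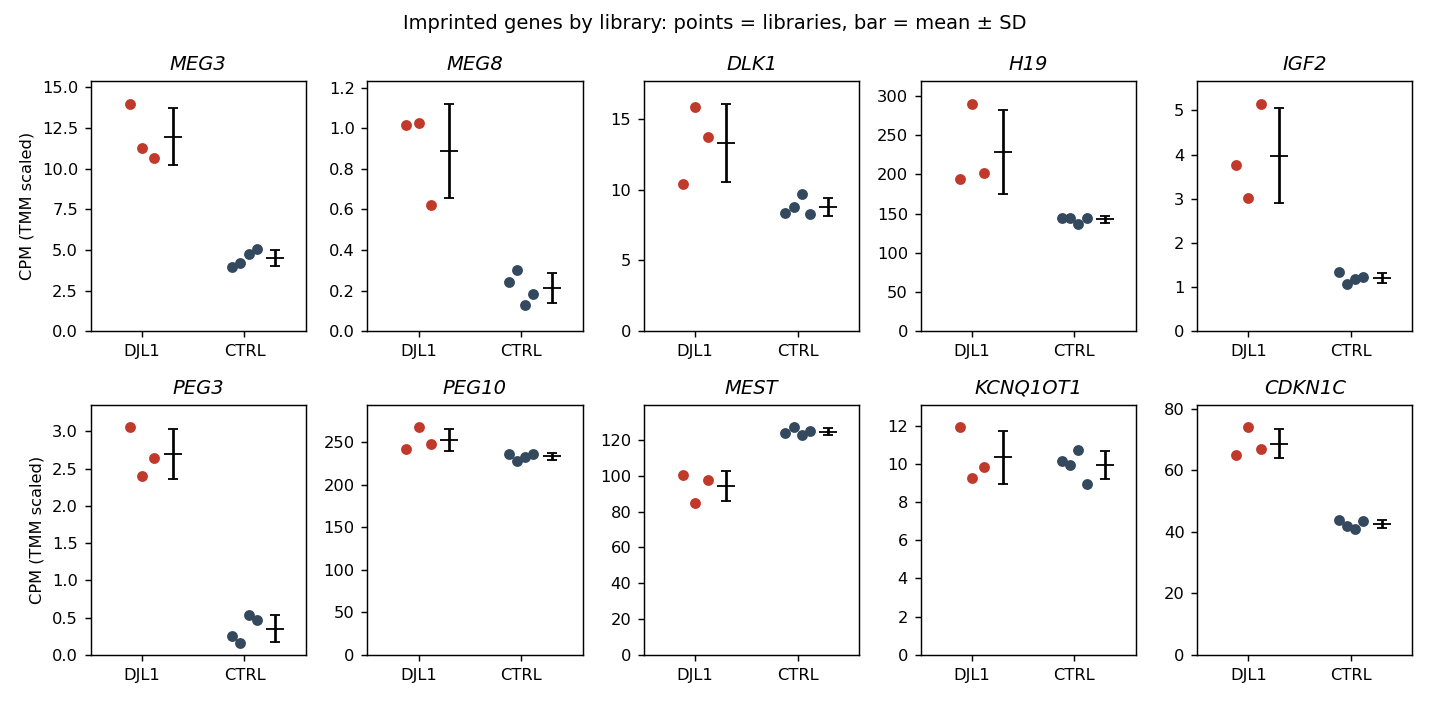
CPM of each gene in every library (vertical axis from 0, 1 panel per gene), DJL1 left and CTRL right; points are libraries and bars mean and SD (n = 3 and 4). Groups do not overlap except for KCNQ1OT1, and H19 has a single high DJL1 library at 290 CPM.

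H19 and MEST each carry a microRNA, shown because their host RNAs were called in opposite directions. Capitals mark the seed, bases 2 to 8, and the sequences are from RefSeq, GRCh38.p14.
hsa-miR-675-5p, from H19, chr11:1996800-1996822, minus strand: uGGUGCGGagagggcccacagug
hsa-miR-335-5p, from MEST, chr7:130496126-130496148, plus strand: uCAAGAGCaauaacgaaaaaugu
The 2 seeds differ. The MIR675 row held 0 counts and the MIR335 row 2 counts over all 7 libraries. None of 48 microRNA and small nucleolar RNA rows of these loci reached 10 counts in all, and 42 held 0. A poly(A) library does not measure mature small RNAs, so the counts say nothing about the level of either microRNA.

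Levels between genes were compared as CPM per kb of the union of annotated exons (GENCODE release 29). In DJL1 cells H19 was highest at 78.8 ± 18.5 CPM per kb, followed by PEG10 at 37.7 ± 1.94, CDKN1C at 27.7 ± 1.89, MEST at 19.7 ± 1.72 and DLK1 at 2.51 ± 0.52 CPM per kb (SD, n = 3). In CTRL cells H19 (49.2 ± 1.34) and PEG10 (34.8 ± 0.56) led as well, but MEST at 26.0 ± 0.37 stood above CDKN1C at 17.2 ± 0.53 CPM per kb (SD, n = 4). The order of CDKN1C and MEST thus differed between the groups, without overlap of libraries in either. The other 5 genes were under 1 CPM per kb in both groups, and there IGF2 and MEG3 overlapped in both groups and PEG3 and MEG8 in CTRL. MEG3 has many annotated isoforms, whose union of 23.2 kb lowers its value. The value of KCNQ1OT1 rests on a length of 91.7 kb. How reads shared by IGF2 and INS-IGF2, or by PEG3 and ZIM2, were counted is not given, so the levels of IGF2 and PEG3 are uncertain.

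Fold changes differed with the level in CTRL across the whole table. The classes are set by the CTRL level, which is also the base of the fold change. A gene low in CTRL can pass the filter on low counts through its DJL1 libraries, which favours higher calls in the lowest class. How much of the lean this makes up was not tested. Among the 8282 genes under 1 CPM in CTRL the median log2 fold change was 0.36, with 25.1% called higher and 4.17% lower, and among the 3712 genes at 64 CPM or more it was -0.15, with 19.4% higher and 55.9% lower. Of the genes in that most abundant class, which holds H19 at 142 ± 3.87 CPM in CTRL (SD, n = 4), 2.16% had a higher log2 fold change than H19. The same share was 4.05% for CDKN1C in its class of 16 to 64 CPM, and 1.12% for PEG3 and 6.75% for MEG8 in the class under 1 CPM. In the class of 1 to 16 CPM the share was 1.95% for IGF2, 4.42% for MEG3, 21.9% for DLK1 and 50.9% for KCNQ1OT1. For PEG10 and MEST, also in the most abundant class, the shares were 18.4% and 83.0%.

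**Figure D5:**
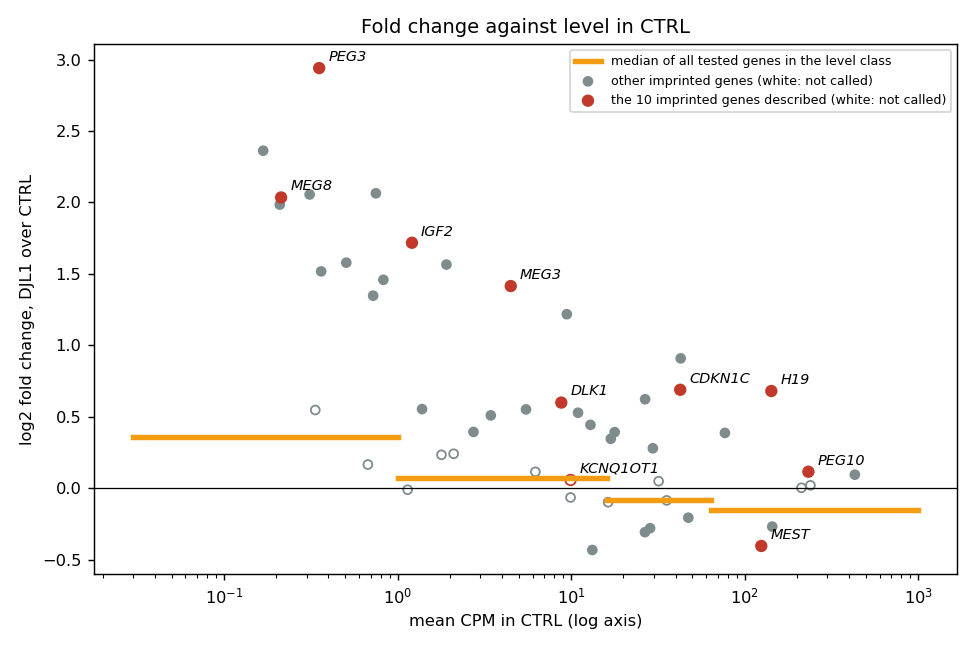
Log2 fold change against mean CPM in CTRL (log axis) for the 10 genes (red) and other imprinted genes (grey), white where not called; orange lines give the median of all tested genes in 4 level classes. Genes under 1 CPM have the highest fold changes, and H19, CDKN1C and PEG10 lie above the median of their class while MEST lies below it.

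Among 40 tested imprinted genes outside the 10, 23 were higher and 5 lower, with a median log2 fold change of 0.39. Over all tested genes 27.0% were higher and 25.1% lower. The list includes the cluster neighbours named above, among them RTL1, which was tested only through the group where it was high. By the smallest adjusted p the leading genes were NAP1L5, a nucleosome assembly protein relative (log2 fold change 1.22), PHLDA2, the chloride channel gene ANO1 (1.57), the neural proteolipid gene NNAT (0.62) and the calcitonin receptor gene CALCR (2.06). They were followed by GRB10, an adaptor that dampens insulin receptor signalling (0.39), TFPI2, a protease inhibitor of placenta (0.53), the Wilms tumour gene WT1 (2.06) and the zinc finger gene ZNF597 (0.44). CALCR and WT1 averaged 0.75 and 0.31 CPM in CTRL, in the class under 1 CPM where all tested genes leaned higher. The 5 lower genes, of which the rule for naming took ZNF331 alone (-0.27) and the others were chosen after their values were seen, also included L3MBTL1 (-0.31), ZNF264 (-0.28), BLCAP (-0.21) and SLC22A18. NNAT lies inside BLCAP, and their calls were opposite. GNAS, a signalling G protein gene and the most abundant of the list, had 461 ± 15.2 CPM in DJL1 and 432 ± 4.12 CPM in CTRL (SD, n = 3 and 4; log2 fold change 0.09 ± 0.04, edgeR adjusted p = 0.0409). This call was lost without any single CTRL library (edgeR adjusted p = 0.0699 to 0.0976), without DJL1 library 2 (log2 fold change 0.059, edgeR adjusted p = 0.0846) and without DJL1 library 3 (0.085, edgeR adjusted p = 0.0559).

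Of 21 genes known to maintain, write or erase methylation at imprinted regions, 9 were higher and 5 lower (median log2 fold change 0.21), beside 27.0% higher and 25.1% lower over all tested genes. The de novo methyltransferase gene DNMT3B was lower, at 1027 ± 116 CPM in DJL1 and 1824 ± 19.2 CPM in CTRL (SD, n = 3 and 4; log2 fold change -0.83). Its catalytically inactive cofactor DNMT3L was higher (0.93), as were NLRP7, a maternal-effect gene whose loss disturbs imprints in human oocytes (0.54), and ARID4B (0.67). The remaining lower genes, named after their values were seen, were DNMT3A (-0.44), UHRF1 (-0.39), CTCF (-0.19) and TRIM28 (-0.19). ZFP57, also singled out afterwards because its motif is shown above, had 60.2 ± 7.48 CPM in DJL1 and 26.3 ± 3.57 CPM in CTRL (SD, n = 3 and 4; log2 fold change 1.20 ± 0.10, edgeR adjusted p = 8.86e-07). DNMT1, the maintenance methyltransferase gene, was not called (-0.04 ± 0.04). Without DJL1 library 1 the lower genes numbered 8, with ATRX, SMCHD1 and ZNF445 added. ATRX and SMCHD1 were called in no other setting. ZNF445 was near the threshold in the main fit (log2 fold change -0.14 ± 0.06, edgeR adjusted p = 0.053). It was also called lower with DESeq2, limma-voom, relative log expression factors, no filter and thinned counts. The same held without CTRL library 3 and without DJL1 library 2.

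In the IGF axis 11 of 18 tested genes were higher and 3 lower (median log2 fold change 0.26). The background for this and the next 2 lists is 27.0% higher and 25.1% lower over all tested genes. The binding protein genes IGFBP6 and IGFBP3 were higher (1.63 and 1.04), as were IRS2, a docking protein of the insulin and IGF receptors (0.98), and STC2, an inhibitor of IGF-binding-protein cleavage (0.90). The receptor genes IGF1R (-0.06 ± 0.05) and IGF2R (0.00 ± 0.04) were not called, except IGF1R without DJL1 library 2 (-0.13, edgeR adjusted p = 0.00479). The 3 lower genes, named after their values were seen, were IGF2BP1 (-0.51), IGF2BP3 (-0.40) and IGF2BP2 (-0.17), which encode RNA-binding proteins named for IGF2 mRNA. In a list of 7 genes, made of cyclin-dependent kinase inhibitors other than CDKN1C and the phosphatase gene CDKN3, 6 were higher and CDKN3 was lower (-0.73, named afterwards), with a median of 0.96. CDKN1A (0.95), CDKN2B (1.82), CDKN1B (0.77) and CDKN2D (0.96) led by adjusted p. Of 15 tested genes of retrotransposon origin related to PEG10, 12 were higher and 2 lower (RTL6, -0.22, and RTL10, -0.23, named afterwards), led by RTL9 (1.88), PNMA5 (1.02), RTL8A (0.76) and the neuronal capsid gene ARC (1.29), with a median of 0.49. The higher genes of this list include RTL1, which was tested only through the group where it was high. The RTL8 copies are near-identical and may share reads, so the value of RTL8A is uncertain.

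Genes near the 10 were also counted without regard to imprinting. Within 500 kb of a start 91 other tested genes were found, of which 28 were higher and 13 lower (median log2 fold change 0.15), beside 27.0% higher and 25.1% lower over all tested genes. By adjusted p they were led by PHLDA2, the tryptophanyl-tRNA synthetase gene WARS1 (0.47), the transcription factor gene YY1 (0.51) and the lysosomal protease gene CTSD (0.45). Around DLK1 4 of 13 were higher and 1 lower, around H19 10 of 26 and 2, and around PEG3 7 of 24 and 2. The window of MEST went the other way, with 2 of 11 higher and 4 lower, and that of PEG10 had 2 of 6 higher and 2 lower. For CDKN1C 3 of 14 were higher and 2 lower, for IGF2 7 of 23 and 2, and for KCNQ1OT1 5 of 18 and 1. MEG3 had 3 of 10 higher and MEG8 2 of 7, each with 0 lower. Windows of the same cluster share genes.

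Most tested markers of other cell types were called higher, beside 27.0% higher and 25.1% lower over all tested genes. Of 13 trophoblast markers 8 were tested and 7 were higher, with a summed level of 44.5 to 57.1 CPM in DJL1 and 17.6 to 20.9 CPM in CTRL. CGA, PSG1, XAGE2, VGLL1 and HSD3B1 averaged under 0.1 CPM in both groups and were not tested, and CGB5, a hormone subunit gene of syncytiotrophoblast, was not called at 3.2 ± 0.97 CPM in DJL1 and 3.15 ± 0.69 CPM in CTRL (SD, n = 3 and 4). Of 12 mesenchyme markers 10 were tested, 8 were higher and 2 were not called, while DCN and LUM did not pass the filter. Both uncalled markers had negative log2 fold changes (down to -0.33), and for 1 of them every DJL1 library lay below CTRL. The summed level of the list was 827 to 952 CPM in DJL1 and 546 to 565 CPM in CTRL. Of 9 endoderm markers 8 were tested, 5 were higher and 3 were not called, with log2 fold changes from -0.21 to 2.56, and TTR did not pass. The endoderm list summed to 18.5 to 23.3 CPM in DJL1 and 6.93 to 8.60 CPM in CTRL. No listed marker was at 0 in all libraries. The part of such cells in the values of the imprinted genes was not tested.

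The genes whose pattern over the 7 libraries was most like that of a given gene, by Pearson's r of log2 CPM over 13181 genes averaging 5 CPM or more, were MAEL, KLF13 and RNF144B for CDKN1C (r = 0.999 to 1.00), ATG9B, ZFAND2A and NR4A1 for H19 (0.997 to 0.999) and RESF1, PRKG1 and PPP2R2C for MEG3 (0.997 to 0.998). For DLK1 they were PTPRN2, the imprinted GNAS and EXTL3 (0.987 to 0.991). For MEST they were POFUT2, DDX5 and LOC101928217 (0.999 for each), and for PEG3 ATF7IP2, TNFRSF21 and ELAVL2 (0.991 to 0.998). The 7 libraries share their groups and depth, and each r is given as a description. In the authors' deposited table the log2 fold change was 1.43 for MEG3, 0.67 for H19, 0.70 for CDKN1C and 3.11 for PEG3, the last of which differed most from the edgeR value, by 0.168.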

How the data were processed

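The authors deposited raw counts per gene symbol, 1 column for each of the 7 libraries. Trimming, alignment and counting tools named in the submitters' processing notes are HISAT2 2.2.1, Trim Galore 0.4.0 and featureCounts with Subread 1.5.0, on GRCh38 (hg38). For strand and overlapping genes the counting setting is not given in the sources. The authors' deposited table gives log2 fold changes of their own comparison and, per the file headers, an adjusted p-value. A deposited log table was not used because its base is not stated. Groups and replicate numbers come from the sample titles.

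Rows passing edgeR's filterByExpr (minimum count 10, minimum total 15) held 99.9% of counts. DJL1 was compared with CTRL by edgeR 4.0.16 (TMM, quasi-likelihood, robust, 2-sided, Benjamini-Hochberg at 0.05), in R 4.3.3, with limma 3.58.1 and DESeq2 1.42.0 as alternatives. Each SE is the log2 fold change over the root of its F value, and a prior count of 2 was used for log2 CPM. The script was tested on simulated data. Counting error sets the precision of low genes, since 1 CPM is 35.1 to 38.3 counts in DJL1 and 62.2 to 76.0 in CTRL. Positions are from RefSeq (GRCh38.p14).

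Named genes were the 10, their overlapping and cluster genes, up to 10 called imprinted genes and up to 4 called genes of each other list or of the 500 kb windows by smallest adjusted p, and the 3 most alike genes. The members, lists and rule were chosen with earlier results of these data known.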

Additional observations from a re-analysis of the deposited data

Results flagged for a closer look

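Of 52 CTRL groups of 4 libraries examined, 3 had a library far from the others by Dixon's test at the 95% level, and chance flags about 1 in 20. H19 had 137 CPM in CTRL library 3, against 144 to 145 CPM in the other CTRL libraries (gap over range 0.925). This gap is small beside the difference to the lowest DJL1 library at 194 CPM. ZNF331 had 150.3 CPM in CTRL library 3 and 142 to 143 CPM in the others (0.888). The log2 ratio of MEG3 to DLK1 was -0.72 in CTRL library 4 and -1.06 to -1.02 in the others (0.861), still below all DJL1 libraries. Groups of 3 libraries, as in DJL1, are not examined by this test.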

How the results depend on the processing

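Over 18 alternatives (17 for MEG8), 8 of the 10 genes kept their direction and side of the threshold. KCNQ1OT1 stayed not called, but its log2 fold change ran from -0.067 to 0.118 and turned negative without DJL1 library 1. PEG10 kept its direction and its call was lost with no filter (log2 fold change 0.084, adjusted p = 0.14), at an adjusted p of 0.01 (0.12), with the replicate number as a block (0.12, adjusted p = 0.0957) and without CTRL library 2 or 3 or DJL1 library 2 (leave-one-out range 0.061 to 0.13). GNAS, a gene outside the 10, also lost its call with relative log expression factors, no filter and the block, and RTL6 with the block. The cause was not tested. With 1 CPM in at least 3 libraries MEG8 was not tested, so 7 genes were higher, as with the replicate block. Leaving out a library gave 5 to 8 lower genes among those of imprint maintenance, 8 of them without DJL1 library 1. All other counts, with DESeq2, limma-voom, other scaling, thinned counts and the block, stayed within 1.5 times. The median of all tested genes moved by under 0.1 in every setting. Same-numbered libraries of the groups did not deviate together over 18294 genes (r = 0.01, -0.10 and -0.10), so replicate numbers were not taken as pairs. Depth limits MEG8, RTL1 and IGF2-AS, which had under 50 counts in every library.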
